A study of Homo sapiens with 10 samples.

Results

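The methionine cycle and the polyamine pathway meet at S-adenosylmethionine, the methyl donor of the cell. Described here are 10 genes of these pathways in high glucose: MAT2A, AHCY, CBS, CTH, ODC1, AMD1, SRM, SMS, SAT1 and AZIN1. They were taken by gene symbol from the deposited table of read counts, where each has 1 row among 22626, and all 10 passed the filter on low counts that left 14936 rows. The lowest count of any of them in any library was 221.

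ARPE-19, an established human retinal pigment epithelium (RPE) cell line, was grown for 48 h in control medium with 5.5 mM glucose and 32 mM mannitol (n = 5) or in medium with 37.5 mM glucose (HG, n = 5). Mannitol, a sugar alcohol, balances the dissolved molecules in the control medium, so glucose and mannitol differ together between the groups and their effects cannot be told apart. RNA of each of the 10 samples was sequenced, and total counts per library were between 33039260 and 45864176 (median 41468270) in the control group and between 32448991 and 44400714 (median 39867119) in the HG group. Control libraries go by replicate number. The HG libraries carry the names of their columns, HG_1 to HG_5, since the labels tie these columns to a group and not to a sample. Nothing in the labels says that the libraries of a group came from separate cultures, so p-values measure the spread between these libraries, which may be technical.

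Levels are given as CPM, counts scaled to the normalized library size, and, where genes are compared with each other, as the deposited FPKM, which is also divided by transcript length. Differences between the groups are log2 fold changes of HG over control from edgeR's quasi-likelihood test, with p-values adjusted by Benjamini-Hochberg over all 14936 rows. A gene is said to pass, to rise or to fall where its adjusted p was under 0.05.

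In the methionine cycle, MAT2A makes S-adenosylmethionine from methionine and ATP. Methyl transfer turns it into S-adenosylhomocysteine, which AHCY splits into adenosine and homocysteine. Homocysteine is then either remethylated to methionine or carried into transsulfuration, where CBS makes cystathionine and CTH cleaves it to cysteine, a building block of glutathione. In the polyamine pathway, ODC1 makes putrescine from ornithine, AMD1 decarboxylates S-adenosylmethionine to the aminopropyl donor, and SRM and SMS use this donor to make spermidine and spermine. SAT1 acetylates both polyamines for export or breakdown, and AZIN1, a relative of ODC1 without its activity, binds antizyme and so protects ODC1 from degradation. Polyamines are needed for cell growth and for the hypusine residue of the translation factor eIF5A.

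Control replicate 2 and HG_1 stood apart from the other 8 libraries. On the second principal component of log2 CPM, which held 14.9% of the variance, they lay at 43.9 and 44.9 and the others between -28.6 and 13.8. Their counts also rose with the GC content of the genes, with slopes of 0.17 and 0.18 (log2 per 10 percentage points of GC), against slopes between -0.09 and 0.00 in the others. The 10 genes span a wide range of GC content, from 37.7% in AMD1 to 63.7% in SRM, so results are given with and without this pair of libraries.

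Of the 10 genes, CTH, ODC1 and MAT2A were higher in HG with an adjusted p under 0.05 and 0 were lower by edgeR. At an unadjusted p under 0.05, 4 were higher and 1 was lower, where 28.5% of all rows were below it (14.1% higher and 14.4% lower). DESeq2 also called 4 higher and 1 lower, beside 20.9% of all rows (3125 of 14936, with 10.2% higher and 10.7% lower). The count of 3 of 10 by edgeR stands beside 15.4% of all rows tested (2303 of 14936, with 7.62% higher and 7.80% lower). Of the 9982 rows with a mean of at least 10 CPM over the libraries, 18.9% passed. All 10 genes reach this mean, but CTH only through its HG libraries (control mean 7.61 CPM). The same 3 genes were those in which the 5 HG libraries did not overlap the 5 control libraries, an arrangement found in 13.6% of all rows tested. The median log2 fold change of the 10 genes was 0.11, against 0.00 over all rows. In a count table of whole cultures, a change in the RNA per cell and a change in the share of cells that express a gene cannot be told apart. Without control replicate 2 and HG_1, 6 of the 10 genes passed, 5 higher (CTH, ODC1, MAT2A, CBS and SAT1) and AMD1 lower, beside 27.1% of 14899 rows. In 5 of these 6, all but CBS, the groups of 4 libraries did not overlap, beside 30.7% of the rows.

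**Figure D1:**
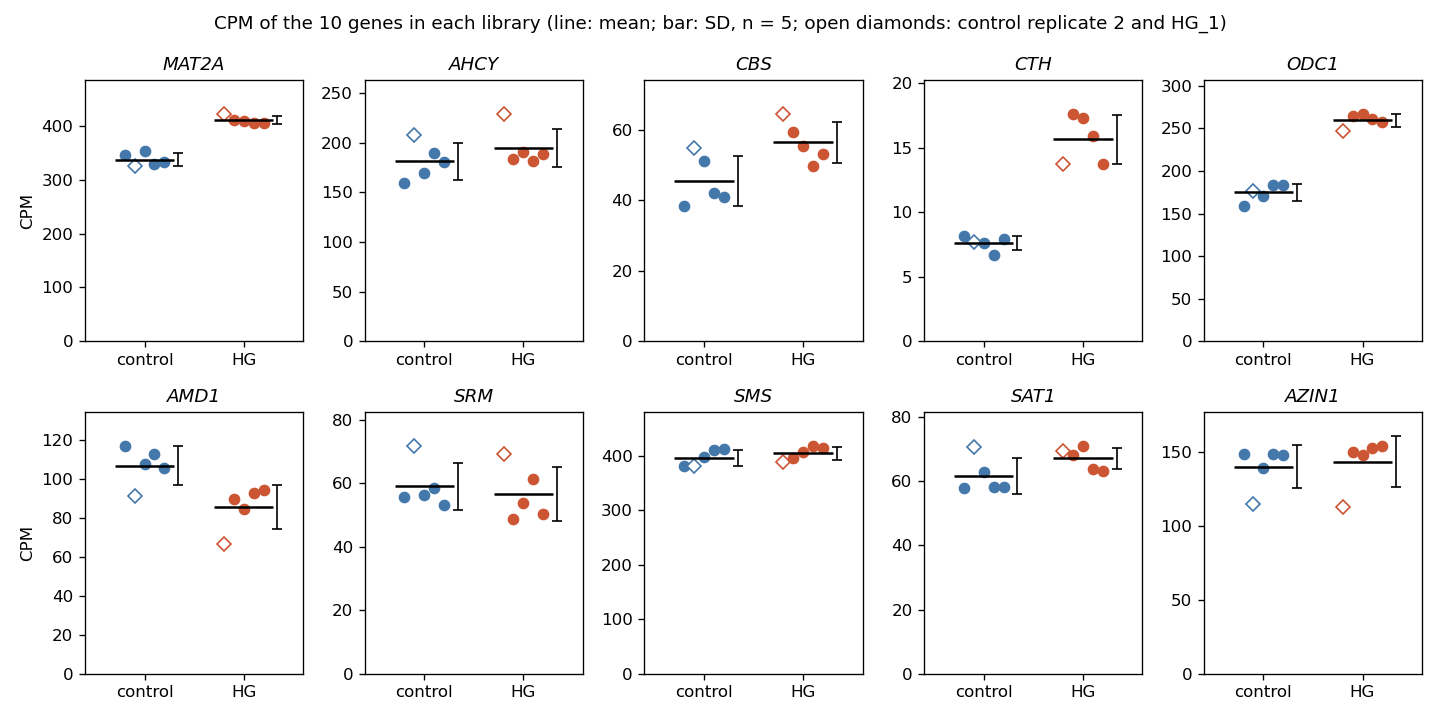
CPM of the 10 genes in each of the 10 libraries, control in blue and HG in orange, with the mean as a line, the SD as a bar (n = 5) and control replicate 2 and HG_1 as open diamonds. The 5 HG libraries lie above the 5 control libraries for MAT2A, CTH and ODC1, and AMD1 in HG lies between 66.8 and 94.6 CPM against 91.3 to 117 in the control group.

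CTH, cystathionine gamma-lyase, catalyses the last step to cysteine and had the largest change of the 10 genes. Its control libraries were at 8.13, 7.69, 7.60, 6.69 and 7.93 CPM (replicates 1 to 5), and HG_1 to HG_5 were at 13.7, 17.6, 17.3, 15.9 and 13.7 CPM. Every HG library was therefore above every control library, with HG_1 and HG_5 the lowest of the HG group. The means were 7.61 ± 0.553 CPM in the control group and 15.6 ± 1.88 CPM in HG (SD, n = 5 each), a 2.05-fold difference. On the log2 scale edgeR gave 1.04 with a standard error of 0.097 (adjusted p = 0.000122), larger in size than that of 97.5% of all rows tested. The counts behind it were 221 to 353 in the control group and 449 to 775 in HG. CTH (ENSG00000116761) lies at chr1:70411218-70439851 on the plus strand (GRCh38, annotation of GENCODE release 29). Its transcript CTH-203 has 11 exons and shares 0 of its 100-base windows with transcripts of other genes.

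ODC1, ornithine decarboxylase, is the entry enzyme of the polyamine pathway. Its control libraries were at 159, 176, 171, 184 and 184 CPM, and HG_1 to HG_5 were at 247, 265, 267, 261 and 258 CPM. The gap between the highest control library and the lowest HG library was thus wider than the whole range within either group. The means were 175 ± 10.3 and 259.7 ± 8.17 CPM (SD, n = 5 each), a 1.49-fold difference. This was 0.57 on the log2 scale, with a standard error of 0.048 (adjusted p = 6.97e-05 from edgeR), larger in size than that of 91.3% of all rows. ODC1 (ENSG00000115758) is at chr2:10439968-10448504 on the minus strand, with 12 exons in transcript ODC1-201.

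MAT2A encodes the catalytic subunit of methionine adenosyltransferase outside the liver. Its control libraries were at 346, 325, 353, 329.9 and 332 CPM, and HG_1 to HG_5 were at 422, 411, 408, 406 and 405 CPM. The HG libraries lay close together and all above the control group. The means were 337 ± 11.8 and 410.4 ± 6.66 CPM (SD, n = 5 each), a 1.22-fold difference. By edgeR this was a log2 difference of 0.28 with a standard error of 0.037 (adjusted p = 0.000636), larger in size than that of 73.7% of all rows. CTH, ODC1 and MAT2A passed in each of the 10 fits that left out 1 library and under each other setting tried, with log2 fold changes for MAT2A between 0.25 and 0.30.

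MAT2A (ENSG00000168906) is at chr2:85539165-85545280 on the plus strand (GRCh38), and its exons share 558 bases (12.4% of its exonic bases) with GGCX on the opposite strand. The strand used in counting is not given in the sources used here, so reads of these bases could belong to either gene. GGCX, vitamin K-dependent gamma-carboxylase, had 62.3 ± 4.14 CPM in the control group and 52.2 ± 4.04 CPM in HG (SD, n = 5 each), and edgeR gave -0.26 on the log2 scale (adjusted p = 0.0247), the opposite direction to MAT2A. Its groups overlapped at their edges (57.6 to 68.5 and 47.5 to 57.7 CPM). GGCX did not pass with the GC and length trends removed (adjusted p = 0.128), with limma on FPKM (up to 0.168), or when control replicate 1 or 4 or HG_2, HG_3 or HG_5 was left out (0.0523 to 0.0642), in a range from 0.00285 to 0.168.

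The MAT2A messenger RNA is known to be controlled through its own 3′ end, where the RNA methyltransferase METTL16 binds hairpins with a conserved run of 9 letters, and through this binding the cell adjusts splicing and stability of the RNA to the supply of S-adenosylmethionine. These 9 letters were searched in the transcript MAT2A-201 (2819 bases), on the RNA strand only. They occur 5 times, all in exon 9, the last one, and all after the stop codon, at 39, 826, 1011, 1126 and 1349 bases from it. Only exact matches were searched and folding was not examined, so a match shows neither a hairpin nor binding, and hairpins with other letters would be missed. The 5 stretches of 25 bases are shown because they hold these letters in a gene that rose here. The 9 letters are in capitals, with coordinates on the plus strand of GRCh38:
MAT2A site 1, chr2:85543804-85543828: gcgtaggcTACAGAGAAgccttcaa
MAT2A site 2, chr2:85544591-85544615: tgatgtcaTACAGAGAAgtcacagg
MAT2A site 3, chr2:85544776-85544800: ggtgtagcTACAGAGAAaccagctt
MAT2A site 4, chr2:85544891-85544915: ggcgtaagTACAGAGAAgccatcac
MAT2A site 5, chr2:85545114-85545138: tggtgtggTACAGAGAAgccagctt

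Among the longest transcripts of 19922 coding genes, 691 hold the 9 letters at least once and 2 hold them 5 times or more. METTL16 itself had 18.7 ± 2.14 CPM in the control group and 18.4 ± 0.956 CPM in HG (SD, n = 5 each), with overlapping groups and a log2 difference of -0.02 (adjusted p = 0.91 from edgeR). Splicing of the last intron was not analysed here, since the tables hold 1 value per gene.

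The promoters of the 10 genes were searched for CACGTG, the E-box that MYC and its relatives bind, and for TGATGNAA, the letters of the amino acid response element, on both strands. RefSeq windows on GRCh38.p14, from 250 bases before to 50 bases after a start site, were found for 9 of the 10 genes (16 windows, AZIN1 without an entry). CACGTG is in 7.26% of all 35093 windows and TGATGNAA in 3.62%. CACGTG is in 2 of the 16 windows, a downstream start of ODC1 with 2 copies and SRM with 1, and TGATGNAA is in 0 of the 16. The stretches around CACGTG are shown because ODC1 rose and SRM did not pass, with CACGTG in capitals, both read 5′ to 3′ on the minus strand:
ODC1, chr2:10447988-10448081: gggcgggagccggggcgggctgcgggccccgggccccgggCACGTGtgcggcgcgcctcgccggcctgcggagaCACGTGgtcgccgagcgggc
SRM, chr1:11060172-11060257: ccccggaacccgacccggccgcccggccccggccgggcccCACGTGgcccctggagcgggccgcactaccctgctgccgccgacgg

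Relative to the start of its window, the ODC1 stretch has CACGTG at -29 and at 5, and in the transcript ODC1-201 both lie in an intron. In SRM the letters begin at -199, upstream of transcript SRM-201. A match of letters is a description and shows no binding.

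AMD1, S-adenosylmethionine decarboxylase, makes the aminopropyl donor for both polyamine synthases and was the only one of the 10 genes with a log2 fold change below -0.1. Its control libraries were at 117, 91.3, 108, 113 and 106 CPM, and HG_1 to HG_5 were at 66.8, 89.8, 84.6, 93.1 and 94.6 CPM. The lowest control library, replicate 2, lay among the HG libraries, and HG_1 lay below all the others. The means were 107 ± 9.95 and 85.8 ± 11.3 CPM (SD, n = 5 each). On the log2 scale the difference was -0.32 (standard error 0.099, 95% interval -0.54 to -0.10), and its adjusted p of 0.0509 from edgeR missed the threshold narrowly.

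Without control replicate 2 and HG_1, AMD1 had 112 ± 5.26 CPM in the control group and 91.2 ± 4.43 CPM in HG (SD, n = 4 each), the groups did not overlap, and it passed at -0.29 on the log2 scale (adjusted p = 0.00208 from edgeR). It also passed with either of these libraries left out alone (adjusted p = 0.0263 without control replicate 2 and 0.0401 without HG_1), with DESeq2 (0.0131) and with the GC and length trends of the libraries removed (3.91e-05). It did not pass in the other 8 fits with 1 library left out (0.0558 to 0.12), with RLE (0.0508), without a count filter (0.0684) or with library size alone (0.0903). Across all settings the adjusted p ran from 3.91e-05 to 0.44, and the direction was the same throughout.

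The 3 highest adjusted p-values of AMD1, 0.409 to 0.44, came from limma on the deposited FPKM, which for AMD1 was not in proportion to the counts. Its FPKM was 31.0, 15.5, 29.7, 30.2 and 28.4 in control replicates 1 to 5 and 17.1, 24.5, 17.6, 25.5 and 25.2 in HG_1 to HG_5. After each library was scaled, the ratio of CPM to FPKM was 1.53 times its median in control replicate 2 and 1.30 times in HG_3. The ratio of the highest to the lowest library was 1.57 for AMD1, more than for 96.6% of the 10414 rows whose lowest library held 200 counts or more (median 1.05). For AZIN1 it was 1.13, for ODC1 1.07 and for the other 7 genes 1.01 to 1.03. AMD1 (ENSG00000123505) is at chr6:110874770-110895713 on the plus strand.

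**Figure D2:**
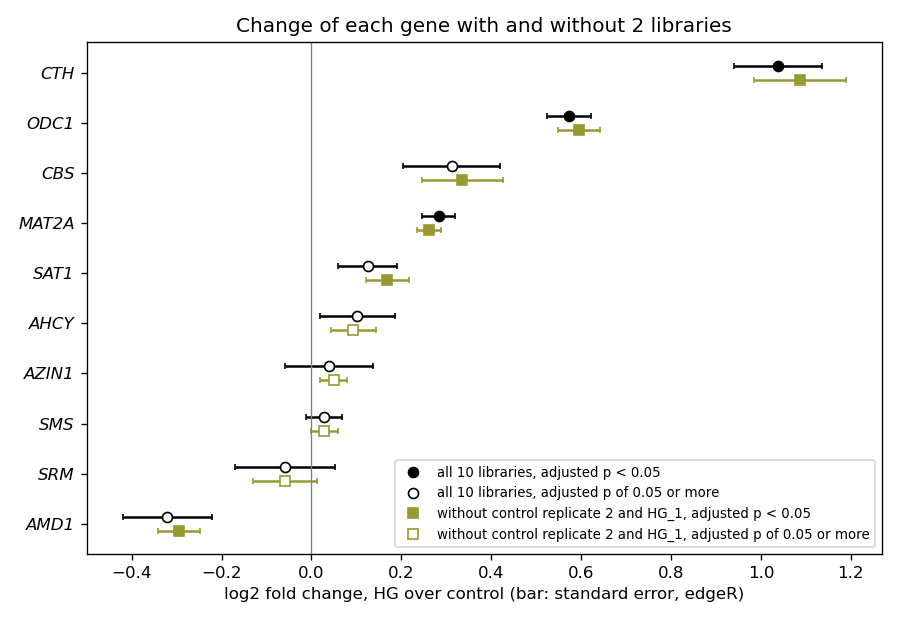
Log2 fold change of HG over control for the 10 genes with its standard error from edgeR, from all 10 libraries (black circles) and without control replicate 2 and HG_1 (squares). Filled symbols have an adjusted p under 0.05: CTH, ODC1 and MAT2A with all libraries, and these with CBS, SAT1 and AMD1 without the pair.

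CBS, cystathionine beta-synthase, acts just before CTH. Its control libraries were at 38.4, 54.7, 51.2, 42.0 and 40.9 CPM, and HG_1 to HG_5 were at 64.5, 59.5, 55.4, 49.6 and 53.1 CPM. Control replicates 2 and 3 lay within the range of the HG group. The means were 45.4 ± 7.08 and 56.4 ± 5.76 CPM (SD, n = 5 each), and the log2 fold change of 0.31 (standard error 0.108, 95% interval 0.07 to 0.55) had an adjusted p of 0.079 from edgeR. With all libraries kept, it passed with DESeq2 (adjusted p = 0.0337), with the GC and length trends removed (0.00588) and with 1 surrogate variable (0.0198). It also passed without control replicate 2 (0.0246) and without the pair of libraries (0.025), in a range of adjusted p from 0.00588 to 0.169 over all settings. The level of CBS is uncertain, because 92.4% of the 100-base windows of its transcript CBS-204 also occur in transcripts of CBSL, a near-identical copy on the same chromosome, and the table analysed here has no row for CBSL. CBS (ENSG00000160200) is at chr21:43053191-43076943, minus strand.

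AHCY, which removes the product of methyl transfer, had 181 ± 18.7 CPM in the control group and 195 ± 19.3 CPM in HG (SD, n = 5 each), and the groups overlapped. Its log2 fold change was 0.10 (95% interval -0.08 to 0.29, adjusted p = 0.484 from edgeR). Control replicate 2, at 208 CPM, and HG_1, at 229 CPM, were the highest of their groups. AHCY (ENSG00000101444) is at chr20:34280268-34311802, minus strand.

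The synthases that follow AMD1 did not pass. SMS, spermine synthase, had the narrowest interval of the 7 genes that did not pass, from -0.06 to 0.11 around a log2 difference of 0.03 (adjusted p = 0.721 by edgeR), with 397 ± 14.7 CPM in the control group and 405 ± 12.2 CPM in HG (SD, n = 5 each). SRM, spermidine synthase, was at 58.9 ± 7.32 and 56.6 ± 8.49 CPM (SD, n = 5 each), with a log2 fold change of -0.06 (95% interval -0.30 to 0.19, adjusted p = 0.794 from edgeR). In SRM too, control replicate 2 (71.6 CPM) and HG_1 (69.0 CPM) were the highest of their groups. Pseudogene AL354714.2 shares 7.31% of the 100-base windows of SMS. SMS (ENSG00000102172) is at chrX:21940573-21994835 on the plus strand and SRM (ENSG00000116649) at chr1:11054584-11060024 on the minus strand.

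SAT1, spermidine/spermine acetyltransferase, is the catabolic enzyme among the 10 genes and lies, like SMS, on the plus strand of chromosome X (ENSG00000130066, 23783173 to 23786226). Its control libraries were at 57.8, 70.9, 62.9, 58.2 and 58.3 CPM, and HG_1 to HG_5 were at 69.5, 68.2, 71.0, 64.0 and 63.3 CPM. Apart from control replicate 2, all control libraries were below all HG libraries. With all libraries edgeR gave 0.12 on the log2 scale, with a standard error of 0.066 (adjusted p = 0.249). It was 0.18 and passed without control replicate 2 (adjusted p = 0.0385), was 0.17 and passed without the pair (0.0305), and was 0.02 with the GC and length trends removed (0.789).

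AZIN1, the antizyme inhibitor, was at 149, 115, 139, 149 and 148 CPM in the control libraries and at 113, 149.8, 148, 153 and 154 CPM in HG_1 to HG_5. Control replicate 2 and HG_1 were lower than the other 8 libraries, which lay between 139 and 154 CPM in both groups. The log2 fold change was 0.04 (95% interval -0.18 to 0.25, adjusted p = 0.851 from edgeR) with all libraries and 0.05 (adjusted p = 0.268) without the pair. AZIN1 (ENSG00000155096) is at chr8:102826357-102893864 on the minus strand, and 5.35% of its exonic bases overlap the antisense gene AZIN1-AS1, which has no row.

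Deviations from the group's mean in control replicate 2 and HG_1 are given beside the GC content of each gene's longest annotated transcript. AMD1 (37.7% GC) and AZIN1 (42.3%) lay 0.23 and 0.28 log2 units below their group's mean in control replicate 2 and 0.35 and 0.33 below it in HG_1. AHCY (56.2%), CBS (57.8%) and SRM (63.7%) lay above it by 0.20, 0.28 and 0.29 in control replicate 2 and by 0.24, 0.20 and 0.30 in HG_1. SAT1, at 43.3% GC, was above the mean by 0.21 in control replicate 2 and by 0.05 in HG_1. MAT2A, SMS and ODC1 deviated by less than 0.08 in both libraries, and CTH by 0.02 in control replicate 2 and by -0.18 in HG_1. The largest deviations in the other 8 libraries were 0.23 for CBS, 0.20 for SRM, 0.19 for CTH, 0.18 for AHCY and 0.15 for AMD1. They were 0.135 for ODC1, 0.11 for AZIN1, 0.09 for SAT1, 0.065 for MAT2A and 0.055 for SMS. For CBS, CTH, ODC1, SAT1 and MAT2A they were larger in size than in HG_1. For CTH, ODC1 and MAT2A they were also larger in size than in control replicate 2.

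**Figure D3:**
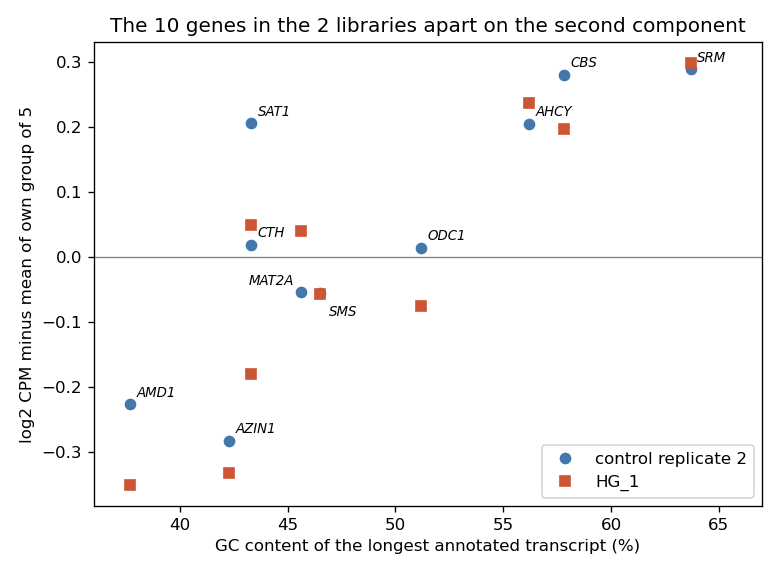
Log2 CPM of each of the 10 genes in control replicate 2 (circles) and HG_1 (squares), less the mean of the gene's own group of 5 libraries, against the GC content of its longest transcript in percent. AMD1 and AZIN1 lie lowest, and AHCY, CBS, SRM and SAT1 (43.3% GC) lie above 0 in both libraries.

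Per transcript length, SMS was the most abundant of the 10 genes, at 217 ± 10.4 FPKM in the control group, and CTH the least, at 3.35 ± 0.237 FPKM (SD, n = 5 each). Between them in the control group lay MAT2A (119 ± 5.93 FPKM), AHCY (77.8 ± 7.28), ODC1 (66.8 ± 5.17), SAT1 (53.5 ± 4.17), SRM (43.9 ± 5.02), AZIN1 (33.4 ± 5.01), AMD1 (26.9 ± 6.5) and CBS (17.7 ± 2.56). The libraries of adjacent genes in this order overlapped for AHCY and ODC1, ODC1 and SAT1, SAT1 and SRM, AZIN1 and AMD1, and AMD1 and CBS, so the order within each of these pairs is not larger than the spread. AMD1 overlapped CBS only through control replicate 2 (15.5 FPKM), whose AMD1 value was not in proportion to its counts. The other control libraries of AMD1, at 28.4 to 31.0 FPKM, were above the highest CBS library, at 20.8 FPKM. SMS, MAT2A and CTH were each clear of their neighbours. In HG the order differed in 1 place, with ODC1 at 99.1 ± 5.95 FPKM above AHCY at 84.1 ± 6.33 (SD, n = 5 each), whose libraries overlapped. CTH in HG was at 6.95 ± 0.944 FPKM, still below the lowest CBS library.

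**Figure D4:**
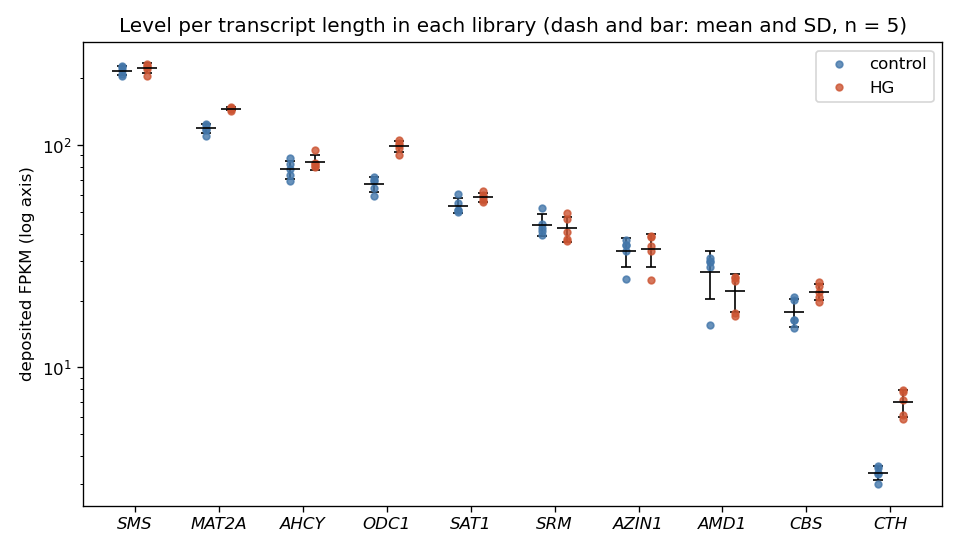
Deposited FPKM of the 10 genes in each library on a log axis, control in blue and HG in orange, with mean and SD (n = 5). The genes are ordered by their control mean, from SMS at 217 to CTH at 3.35 FPKM, and ODC1, MAT2A and CTH are higher in HG.

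Ratios between steps of the pathways were formed within each library. The ratio of AMD1 to ODC1 in CPM was 0.518 to 0.740 in the control libraries and 0.271 to 0.367 in HG, so each HG library had less AMD1 for its ODC1 than any control library. On the FPKM scale the same ratio was 0.225 to 0.523 in the control group and 0.165 to 0.258 in HG, and the groups overlapped through control replicate 2. The ratio of CTH to CBS in CPM was 0.171 ± 0.0306 in the control group and 0.279 ± 0.0444 in HG (SD, n = 5 each), with the limit on CBS given above. The groups nearly touched, with 0.212 in the highest control library and 0.213 in the lowest HG library, and on the FPKM scale these were 0.237 and 0.242. The ratio of SAT1 to ODC1 in CPM was lower in every HG library (0.245 to 0.282) than in every control library (0.317 to 0.403), while that of SRM to SMS overlapped (0.121 to 0.177 and 0.129 to 0.187). ODC1 itself was higher in every HG library, so a ratio over ODC1 falls for a gene that stays level. That of AZIN1 to ODC1 in CPM was likewise 0.651 to 0.938 in the control group and 0.46 to 0.597 in HG, with overlapping groups on the FPKM scale. These ratios are descriptions and were not tested.

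The 10 genes did not vary as 1 block over the libraries. After each gene's mean over the 10 libraries was subtracted, the root mean square difference in log2 CPM was smallest between AHCY and SAT1 (0.106) and largest between CTH and AMD1 (0.701). The gene nearest to CTH among the 10 was ODC1, at 0.267. Over the 9647 other rows with a symbol and a mean of at least 10 CPM, those most like CTH were VEGFA (0.103), ARRDC3 (0.144) and CEBPG (0.166), against a median of 0.546. The means of the control and HG libraries were 47.8 and 87.1 CPM for VEGFA, 11.4 and 22.7 CPM for ARRDC3, and 16.2 and 27.5 CPM for CEBPG (n = 5 each). These genes were picked for a profile like that of CTH, so their higher level in HG follows from the choice.

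Of 58 other genes in 6 lists of these pathways, 57 had a row and 52 were tested. Of the 52, 6 were higher and 3 lower in HG with an adjusted p under 0.05, or 17.3% beside 15.4% of all rows, with a median log2 fold change of 0.04. Without control replicate 2 and HG_1, 11 were higher and 7 lower, beside 27.1% of all rows. With DESeq2 10 were higher and 5 lower, beside 20.9% of all rows, and at an unadjusted p under 0.05 by edgeR 11 were higher and 6 lower, beside 28.5%.

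In remethylation and the handling of S-adenosylmethionine, 3 of 15 tested genes rose and 0 fell by edgeR, or 20% beside 15.4% of all rows, with a median log2 fold change of -0.02. At an unadjusted p under 0.05, 4 were higher and 2 lower, as by DESeq2, beside 28.5% and 20.9% of all rows. Among those that rose, MMACHC, which processes vitamin B12 for methionine synthase, rose from 13.1 ± 1.21 to 16.9 ± 1.6 CPM (log2 fold change 0.36, adjusted p = 0.0201). ADK, the kinase that clears the adenosine released by AHCY, rose from 36.5 ± 2.07 to 44.2 ± 1.11 CPM (log2 fold change 0.28, adjusted p = 0.00442, edgeR and SD with n = 5 for both genes). The HG libraries of ADK lay above all control libraries, and the groups of MMACHC overlapped at 14.7 CPM. The 12 genes that did not pass had log2 fold changes between -0.48 and 0.23, among them AHCYL1 (179 and 161 CPM, adjusted p = 0.0555), MMADHC (131 and 123 CPM, adjusted p = 0.133) and MAT2B, the regulatory partner of MAT2A (66.4 and 70.0 CPM, adjusted p = 0.448). BHMT, the betaine route of liver and kidney, had 0 counts in every library, which allows up to 0.0912 CPM in the smallest, and BHMT2 had at most 16 counts.

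In methionine salvage, which returns the sulfur of the spent aminopropyl donor to methionine, 0 of 5 genes passed with edgeR, beside 15.4% of all rows. Log2 fold changes were between -0.16 and 0.19. The most abundant, ADI1, had 123 CPM in the control group and 110.4 CPM in HG (adjusted p = 0.152), and MTAP, the first enzyme, was at 73.7 and 75.7 CPM (adjusted p = 0.807). At an unadjusted p under 0.05, 1 gene was higher (ENOPH1) and 1 lower (ADI1), and DESeq2 called 0 in either direction, beside 28.5% and 20.9% of all rows.

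In transsulfuration, sulfide and glutathione, 1 of 11 tested genes rose and 1 fell, or 18.2% beside 15.4% of all rows, with a median of 0.06. ADO, an oxygenase that turns cysteamine into hypotaurine, rose from 59.1 ± 3.06 to 73.1 ± 5.44 CPM (log2 fold change 0.31, adjusted p = 0.00709 from edgeR). CDO1, which oxidizes cysteine, was lower, at 15.3 ± 1.21 and 12.4 ± 1.21 CPM (log2 fold change -0.31, adjusted p = 0.0369 from edgeR, SD with n = 5 for both genes). The groups of both genes did not overlap in CPM, as in 13.6% of all rows. In FPKM the groups of CDO1 overlapped, with control replicate 2 at 7.91 and HG_4 at 8.13. CDO1 passed in only 4 of the 10 fits with 1 library left out. It did not pass without control replicate 1, 3, 4 or 5, HG_2 or HG_3 (adjusted p = 0.0553 to 0.0919). With all libraries it narrowly did not pass with library size alone (0.0511), without a count filter (0.0501) or with limma on log2 FPKM with 1 added (0.0506), in a range from 0.00816 to 0.0919. At an unadjusted p under 0.05, 2 were higher and 1 lower, as by DESeq2, beside 28.5% and 20.9% of all rows. The 9 others had log2 fold changes between -0.16 and 0.33, the highest that of SQOR (20.1 and 25.2 CPM), whose adjusted p of 0.05 from edgeR was not under the threshold. The subunits of the first glutathione enzyme, GCLC and GCLM, were at 40.2 and 44.0 CPM in the control group and 42.2 and 45.2 CPM in HG (adjusted p = 0.705 and 0.85), and GSS, the second enzyme, at 64.8 and 73.3 CPM (adjusted p = 0.23).

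Among genes of polyamine control, oxidation and transport, 0 of 13 rose and 1 fell by edgeR, or 7.69% beside 15.4% of all rows, with a median of 0.02. At an unadjusted p under 0.05, 2 were higher and 1 lower, as by DESeq2, beside 28.5% and 20.9% of all rows. ARG2, the mitochondrial arginase that supplies ornithine, had 4.72 ± 0.782 CPM in the control group and 3.05 ± 0.709 CPM in HG (SD, n = 5 each, log2 fold change -0.63, adjusted p = 0.0464 from edgeR). Its groups did not overlap, but its adjusted p was 0.0517 to 0.113 in all 10 fits with 1 library left out, 0.077 without control replicate 2 and HG_1, and 0.0622 without a count filter, in a range from 0.00983 to 0.113. The antizymes, which bind ODC1 and direct it to degradation, did not pass: OAZ1 was at 645 ± 63.8 and 629 ± 71.5 CPM (adjusted p = 0.842) and OAZ2 at 131 ± 10.5 and 130.3 ± 11.3 CPM (adjusted p = 0.979, SD with n = 5 for both). The polyamine transporter ATP13A3 was at 730.5 and 692 CPM (adjusted p = 0.798). The largest positive value of the list, 0.51 for AZIN2, had an adjusted p of 0.0804, and SAT2 had 0.39 with 0.0509.

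Of the 4 hypusine genes, EIF5A2 rose from 21.3 ± 1.26 to 30.2 ± 3.79 CPM (SD, n = 5 each, log2 fold change 0.50, adjusted p = 0.00318 from edgeR), with all HG libraries above all control libraries. This is 1 of 4 genes, beside 15.4% of all rows that passed and 13.6% whose groups did not overlap. DESeq2 and an unadjusted p under 0.05 also gave 1 of 4, beside 20.9% and 28.5% of all rows. The major gene EIF5A varied widely within the control group, from 86.8 CPM in replicate 1 to 343 CPM in replicate 2, and had a log2 fold change of -0.01 with a standard error of 0.308. DHPS and DOHH, the enzymes that make hypusine, did not pass (adjusted p = 0.529 and 0.607).

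Among 5 genes of methionine and cystine uptake, SLC7A11, the cystine transporter, rose from 29 ± 4.08 to 43.2 ± 6.21 CPM (log2 fold change 0.58, adjusted p = 0.00993). SLC7A5, the carrier of large neutral amino acids such as methionine, fell from 1098 ± 21.4 to 941 ± 57.5 CPM (log2 fold change -0.22, adjusted p = 0.00878, edgeR and SD with n = 5 for both). Their groups did not overlap in CPM, as in 13.6% of all rows, and these 2 of 5 genes that passed stand beside 15.4%. In FPKM the groups of SLC7A11 overlapped, with control replicate 3 at 3.13 and HG_1 at 3.10. By DESeq2 and at an unadjusted p under 0.05 there was also 1 higher and 1 lower, beside 20.9% and 28.5% of all rows. SLC3A2, the heavy chain that both carriers need, was at 424 ± 39.8 and 431 ± 43.7 CPM (SD, n = 5 each, adjusted p = 0.895 from edgeR). SLC38A2 had few counts, between 8 and 41 in any library.

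As checks of the labels, the glucose-induced genes TXNIP and ARRDC4 were higher in every HG library. TXNIP was at 0.809 to 1.23 CPM in the control libraries and 5.38 to 12.9 CPM in HG, and ARRDC4 at 2.74 to 3.80 and 4.52 to 6.21 CPM. Their log2 differences were 3.15 and 0.74 (adjusted p = 5.55e-05 and 0.00414 by edgeR).

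The RPE label was checked with 12 marker genes. Of these, RPE65, TYR, SERPINF1 and TTR had a mean below 1 CPM, with TTR at 0 in every library, while OTX2 (96.2 and 88.8 CPM) and MITF (57.8 and 50.2 CPM) were present. The most abundant marker was KRT8, at 1864 ± 155 CPM in the control group and 1211 ± 175 CPM in HG (SD, n = 5 each), and it fell together with KRT18 and PMEL (adjusted p = 0.00159, 0.00142 and 0.00854 from edgeR). These stand, out of 9 tested markers, beside 7.80% of all rows that fell. RLBP1, BEST1, MITF, TYRP1, SERPINF1 and OTX2 did not pass (adjusted p = 0.067 to 0.983 from edgeR). Their log2 fold changes were all negative too, from -4.97 (BEST1) to -0.009 (TYRP1). The groups of OTX2 did not overlap in CPM, as in 13.6% of all rows. The summed level of the 12 markers was 2833 to 3591 CPM in the control libraries and 1796 to 2470.2 CPM in HG. Most of this sum came from KRT8 and KRT18 (KRT18 mean 1059.6 CPM in the control group and 659 CPM in HG). BEST1 ran from 0.577 to 551 CPM within the control group. Markers of endothelial cells (3 genes, summed at 0 to 0.583 CPM) and liver (2 genes, 0 to 0.24 CPM) were near 0. The most abundant of these were VWF and ALB, and CDH5 was at 0 in every library. Of 4 macrophage and microglia markers, PTPRC, AIF1 and CX3CR1 were below 1 CPM, and CD68, a lysosomal protein also made by other cells, carried the sum, at 54.5 to 81.1 CPM in the control libraries and 102 to 143 CPM in HG. The part of these markers in the results on the 10 genes was not tested.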

How the data were processed

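The authors deposited 1 table of whole-number read counts per gene, without normalization, and, for these 10 libraries, a second deposited table in FPKM. The submitters' processing notes name fastp 0.20.1, HISAT2 2.2.1 and GRCh38, while the counting program and annotation are not given in the sources used here. In R 4.3.3, the counts were filtered with edgeR 4.0.16 (filterByExpr), TMM-normalized and tested with the quasi-likelihood test across all genes, with Benjamini-Hochberg adjustment over 14936 rows. Standard errors are the absolute log2 fold change divided by the square root of F. Log2 CPM used a prior count of 2. A count of 0 allows up to 3 counts, 0.0669 to 0.0912 CPM, for counting error only. All 20 pairs of libraries within a group differed by more than sampling noise (chi-square per gene 13 to 78).

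Members and lists were chosen with earlier results of these data known. Named are the 10 members, the listed genes with an adjusted p under 0.05 except 1, examples of high level among the others, TXNIP and ARRDC4, and the 3 rows most like CTH. Other listed genes named (MAT2B, BHMT, BHMT2, MTAP, ENOPH1, GCLC, GCLM, DHPS, DOHH, SQOR, AZIN2, SAT2, SLC38A2 and METTL16) and GGCX were chosen after their values were seen. Positions and GC content come from GENCODE release 29 (20232 of 20463 Ensembl rows matched). Alternatives were DESeq2 1.42.0, RLE, library size alone, 2 count filters, limma 3.58.1 on log2 FPKM with 1 or 0.1 added, a GC and length offset (lowess span 0.3), 1 surrogate variable from sva 3.50.0, and libraries left out. Rows assembled without a reference gene, or absent from GENCODE 29, were left out as alternatives chosen after seeing the data. A sum of CBS and CBSL could not be tested, since CBSL has no row.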

Additional observations from a re-analysis of the deposited data

Results flagged for a closer look

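Among the 50 groups of 5 CPM values examined, 4 had a library at a distance from the rest of its group, and 2.5 such groups would arise by chance at 1 in 20. All 4 cases lay in control replicate 2 or HG_1. The groups share libraries and are not independent, so the number given by chance is no measure for these cases. AHCY in HG_1 had 229 CPM, while HG_2 to HG_5 ranged from 182 to 190.5. SRM in control replicate 2 had 71.6 CPM, while replicates 1, 3, 4 and 5 ranged from 53 to 58.3. AZIN1 had 115 CPM in control replicate 2, with 139 to 149 in the remaining control libraries, and 113 CPM in HG_1, with 148 to 154 in HG_2 to HG_5. These 3 genes did not pass with edgeR, with all libraries or without this pair.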

How the results depend on the processing

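CTH, ODC1 and MAT2A kept their direction and passed under all 13 other settings and in all 10 fits that left out 1 library. Their log2 fold changes over the 13 settings were 0.86 to 1.09, 0.55 to 0.60 and 0.25 to 0.30. AHCY, SRM, SMS and AZIN1 passed in none of these 23 fits. In the sign of values that did not pass, SMS became -0.03 with the GC and length trends removed, and without control replicate 2 AZIN1 became -0.02 and SRM 0.02. Over all rows, 2303 of 14936 passed (15.4%), 3125 of 14936 with DESeq2 (20.9%), 3780 of 13538 with the GC and length trends removed (27.9%), 2515 of 14936 with 1 surrogate variable (16.8%) and 4035 of 14899 without control replicate 2 and HG_1 (27.1%). The share was 17.7% with at least 10 counts in every library, 11.1% without a count filter, 17.3% and 17.4% in the 2 alternatives chosen after seeing the data, and 10.9% to 19.9% with 1 library left out (16.6% without control replicate 2 and 19.9% without HG_1). The counts that follow stand beside these shares. Of the 10 genes, 4 were higher with DESeq2, with the GC and length trends removed and with 1 surrogate variable, 5 without control replicate 2 and HG_1, and 3 to 5 when 1 library was left out, with 5 without control replicate 2. AMD1 made the count of lower genes 1 in place of 0 with DESeq2, with at least 10 counts in every library, with the GC and length trends removed, with 1 surrogate variable, without the pair, and in the 2 alternatives chosen after seeing the data. That count was 0 to 1 with 1 library left out, and 1 without control replicate 2 or HG_1. Of the other pathway genes, 6 were higher with all libraries, 10 with DESeq2, 12 with the trends removed and 11 without the pair. The number lower was 3 with all libraries, 5 with DESeq2, 1 without a count filter, 6 with the trends removed and 7 without the pair, and 1 to 5 with 1 library left out (1 without control replicate 1, 3, 4 or 5, HG_2 or HG_3, and 5 without HG_1). The causes were not tested. The summed test of CBS and CBSL was not run, and ARRDC4 was below the filter on mean FPKM. Some genes, such as SLC38A2, had few counts, and whether depth limits them was not tested.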
